A study of Mus musculus with 51 samples.

Results

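Transcripts of the mitotic machinery were followed in the developing mouse limb. The set holds 43 genes listed by symbol, covering entry into mitosis, the spindle, the kinetochore and cell division, and 42 of them were measured among 18194 genes. Ccnb1, which encodes cyclin B1, had no probe set listed under its symbol alone. Limb buds and whole embryos came from wild-type FVB mice with no other allele or treatment in any group, and their RNA was hybridised to 51 genome-wide arrays. Forelimb buds had 3 arrays at E9.5 (embryonic day 9.5) and 4 at E11.5, and 5 for each of E10.5, E12.5 and E13.5. Hindlimb buds had 4 arrays at E10.5 and 5 for each later stage, and whole embryos had 2 for every age. Each array holds the RNA of 1 embryo and the replicates of a stage came from the same litter, so that stage and litter cannot be told apart.

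Cells enter mitosis when cyclin-dependent kinase 1, bound to cyclins A and B, is switched on by CDC25 phosphatases. Aurora and Polo kinases then build the spindle, kinetochores attach chromosomes to it, and a checkpoint holds back the anaphase promoting complex until every chromosome is attached. Many of these genes are transcribed mainly in the G2 phase of the cycle, so their transcripts are widely used as a readout of dividing cells. The early limb bud is a mass of proliferating mesenchyme, in which cartilage, muscle and connective tissue differentiate as the bud grows.

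Promoters of these genes often carry a CCAAT box and the cell cycle homology region TTTGAA, a site of the DREAM complex, which represses such genes in resting cells. RefSeq start sites (GRCm38.p6) were given for 37 of the 43 genes, and windows of 300 bases, 250 before and 50 after each start, were searched on both strands. TTTGAA or its reverse complement stood in 27 of the 37 genes (73%), against 20.2% of the 27025 genes of the table. CCAAT or its reverse complement stood in 29 (78.4%, against 41.1%) and both motifs in 23 (62.2%, against 7.97%). Within 50 bases of the start, TTTGAA stood in 25 of the 37 genes and in 5.72% of all genes. Among the 13 genes called down-regulated in the forelimb below, 11 had an entry and 9 of them held TTTGAA, as did 18 of the other 26. These counts describe letters in a window, were not tested and say nothing of binding. Ccna2, Aurkb, Kif20a, Tpx2, Incenp and Cdc25c had no entry.

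The 250 bases before the start are shown for Plk1, Bub1 and Cdca8, the 3 genes of largest fall in the forelimb among those with an entry, and for Kif15, whose signal did not fall. They lie at chr7:122159185-122159434 on the plus strand, chr2:127831860-127832109 on the minus strand, chr4:124936918-124937167 on the minus strand and chr9:122950831-122951080 on the plus strand, and read 5′ to 3′ along the gene. Capitals mark the matches to both motifs on either strand.
Plk1: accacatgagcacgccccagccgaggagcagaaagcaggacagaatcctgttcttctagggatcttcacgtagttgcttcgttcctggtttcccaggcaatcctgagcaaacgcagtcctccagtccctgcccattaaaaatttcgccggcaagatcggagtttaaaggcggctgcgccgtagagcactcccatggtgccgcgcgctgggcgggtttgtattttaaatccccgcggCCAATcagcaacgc
Bub1: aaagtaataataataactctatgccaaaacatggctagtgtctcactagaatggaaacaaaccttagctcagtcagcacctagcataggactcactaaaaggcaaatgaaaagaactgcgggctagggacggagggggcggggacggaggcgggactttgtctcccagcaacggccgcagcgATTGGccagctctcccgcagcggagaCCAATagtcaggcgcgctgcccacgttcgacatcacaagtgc
Cdca8: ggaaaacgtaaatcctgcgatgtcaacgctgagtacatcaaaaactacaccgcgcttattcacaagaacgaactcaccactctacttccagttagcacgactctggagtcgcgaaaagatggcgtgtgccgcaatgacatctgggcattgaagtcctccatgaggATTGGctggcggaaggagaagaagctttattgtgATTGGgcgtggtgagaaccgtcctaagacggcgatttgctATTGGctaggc
Kif15: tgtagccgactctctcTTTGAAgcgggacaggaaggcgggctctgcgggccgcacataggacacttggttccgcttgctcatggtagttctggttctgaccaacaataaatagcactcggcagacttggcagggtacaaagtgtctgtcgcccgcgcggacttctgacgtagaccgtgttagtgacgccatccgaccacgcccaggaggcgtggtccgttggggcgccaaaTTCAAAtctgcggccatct

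The CCAAT box of Plk1 began 14 bases before the start, Bub1 held 2 matches at 68 and 42 bases, and Cdca8 held 3 at 85, 51 and 11 bases before it. In Plk1 and Cdca8 a TTTGAA stood after the start, beginning at base 31 and base 14 of the transcript and outside the stretch shown, and Cdca8 held a further match to the reverse complement of CCAAT from base 19. Kif15 held TTTGAA at 234 bases and its reverse complement at 19 bases before the start and no CCAAT in the window. Its single probe set read below the median of all probe sets and its change did not pass the test, so it marks no opposite response.

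The labels of tissue were checked against marker genes. Tbx5, a forelimb transcription factor, had a mean log2 signal of 9.02 in E10.5 forelimb and 5.20 in hindlimb, while Pitx1, a hindlimb factor, gave 4.80 and 10.19. Sox2, a neural progenitor gene, was near background in E10.5 forelimb (3.54) and high in whole embryo (10.85). In E10.5 hindlimb it ranged from 2.98 to 9.04 between arrays, and the mean of 7 neural genes from 4.41 to 7.41. An E10.5 hindlimb array thus carried neural transcripts. With 1 array left out, the median change of the mitosis genes in hindlimb from E10.5 to E13.5 stayed between -0.76 and -0.71. The arrays form 2 sets: a spiked bacterial control (dap) read 10.60 to 13.04 on the log2 scale for all whole embryos and E9.5 forelimbs (13 arrays) and 2.68 to 3.59 for the 38 later limb arrays. For Gapdh the excess of the 3′ over the 5′ probe set, a measure of transcript length after labelling, was 1.48 to 2.85 log2 units in the former and -0.10 to 0.16 in the latter. Comparisons of later limbs with whole embryo or with E9.5 forelimb therefore cross both sets, and their part in those differences cannot be told apart from tissue or stage. For 2 arrays, E11.5 hindlimb replicate 5 and E12.5 forelimb replicate 5, the title and another label name different groups, and they were kept by title.

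Averaged over the 42 genes, the log2 signal fell at each stage in both limbs. It was 9.14 in E10.5 forelimb (SD 0.019, n = 5), 8.94 at E11.5 (SD 0.057, n = 4), 8.77 at E12.5 (SD 0.044, n = 5) and 8.39 at E13.5 (SD 0.064, n = 5). In hindlimb it was 9.21 (SD 0.0056, n = 4), 9.05 (SD 0.029, n = 5), 8.81 (SD 0.058, n = 5) and 8.55 (SD 0.046, n = 5) at the same stages. The arrays of successive stages did not overlap in either limb, and the mean over all 18194 genes stayed between 6.18 and 6.28 on every limb array. In whole embryos the mean went from 8.93 at E9.5 to 8.87, 8.65, 8.57 and 8.43. Their mean over all genes was less steady, at 6.11 for E10.5 and 6.31 for E13.5. The Gapdh excess of the 3′ probe set in whole embryo was 2.56 to 2.63 at E10.5 and 1.92 to 2.02 at E13.5. The part of these shifts in the whole-embryo changes and in the comparisons with whole embryo below was not tested. E9.5 forelimb lay at 9.05 (9.04 to 9.05). In tissue RNA of this kind, fewer dividing cells and less of these transcripts per cell cannot be told apart.

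**Figure D1:**
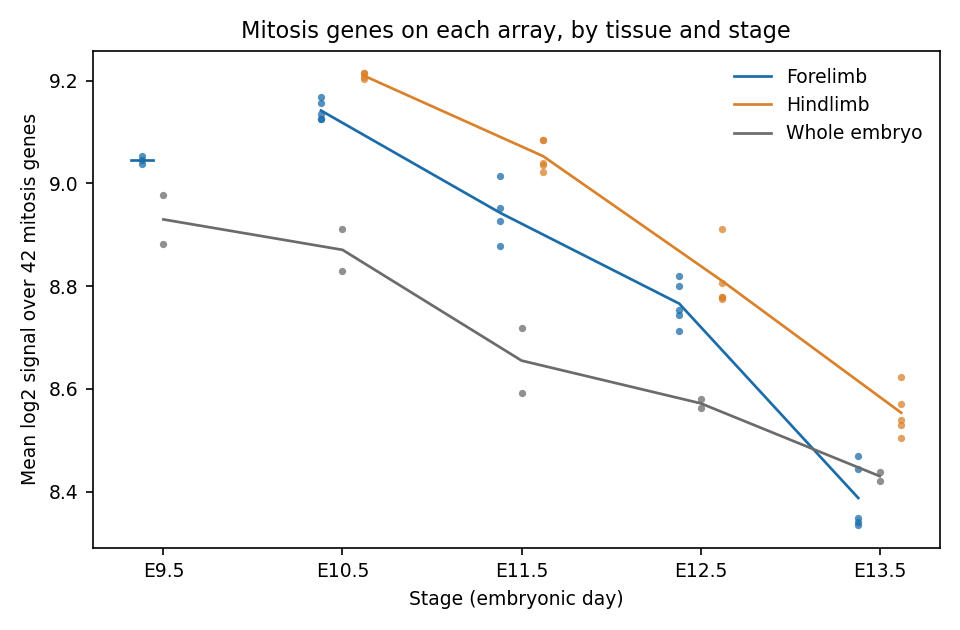
Mean log2 signal over the 42 measured mitosis genes on each array (points) by embryonic day, with lines through the group means of forelimb, hindlimb and whole embryo; the E9.5 forelimb mean is a separate dash because those arrays belong to the other set. Forelimb falls from 9.14 at E10.5 to 8.39 at E13.5 and hindlimb from 9.21 to 8.55.

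Between E10.5 and E13.5, 13 of the 42 genes were called down-regulated in forelimb, which required a fold change of at least 2 at a Benjamini-Hochberg adjusted p under 0.001 in limma over all genes. Of all genes, 5.13% were called so. With the same adjusted p and no limit on fold change, 35 of 42 were lower, against 26.0% of all genes. In hindlimb 11 were called (background 5.16%) and 30 were lower by adjusted p alone (background 23.8%). No gene of the set was called up-regulated in either limb (backgrounds 5.43% and 5.99%), and none was higher by adjusted p alone, though Mki67 in hindlimb was under alternatives given below. The median change was -0.73 log2 in forelimb and -0.73 in hindlimb, beside -0.03 and -0.08 over all genes. Standard errors of the members' forelimb changes ran from 0.05 to 0.18. In 37 members every E13.5 forelimb array lay below every E10.5 array (30.5% of all genes), and in hindlimb this held for 33 (29.6%).

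All 30 genes lower in hindlimb were also lower in forelimb, and 9 were called in both limbs: Plk1, Cdc25c, Kif20a, Cdca8, Kif2c, Kif11, Mad2l1, Ndc80 and Ube2c. Espl1, Bub1, Cenpf and Ccnb2 were called in forelimb alone and Nek2 and Aurkb in hindlimb alone. None of the 42 differed between the limbs in the size of its change at adjusted p under 0.001 (3.03% of all genes did in limma), and 7 had an unadjusted p under 0.05 (26.4% of all genes), all with the more negative change in forelimb. Under quantile normalization of the arrays the called counts were 8 in forelimb and 6 in hindlimb, and the medians -0.57 and -0.60.

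**Figure D2:**
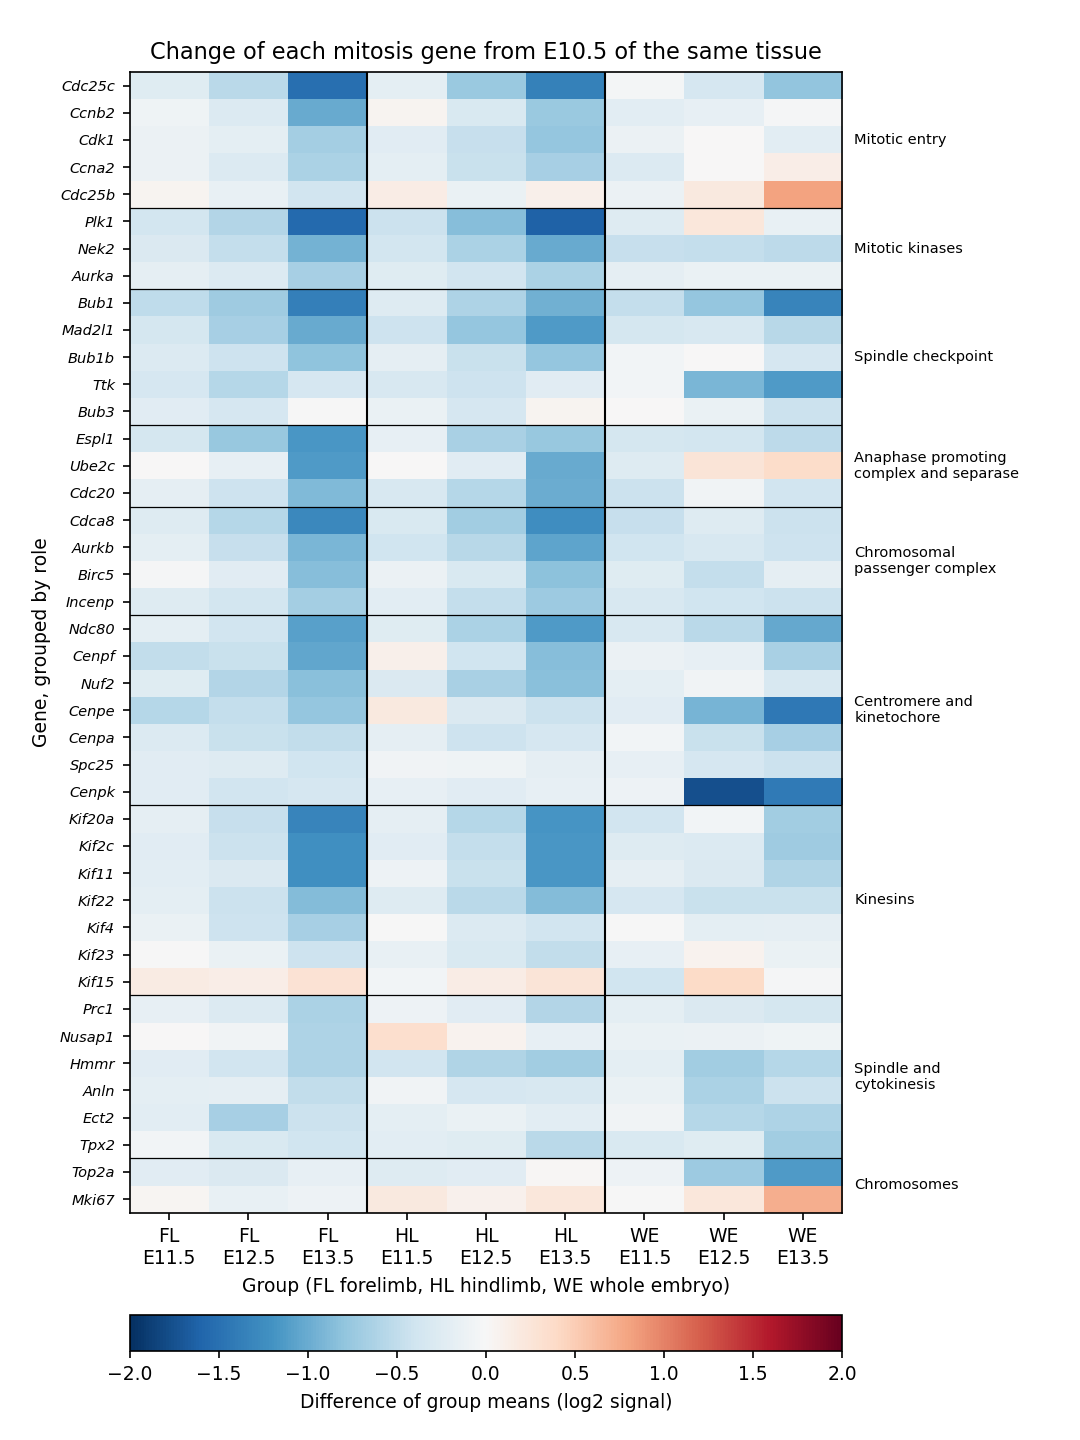
Difference of group means from E10.5 of the same tissue (log2 signal, colour scale) for each of the 42 genes, grouped by role, in forelimb (FL), hindlimb (HL) and whole embryo (last 3 columns) at E11.5, E12.5 and E13.5. The deepest blue in the limbs is at E13.5, with Plk1 at -1.56 in forelimb and -1.62 in hindlimb, while Bub3, Kif15, Top2a and Mki67 stay between -0.16 and 0.28 there; in whole embryo Cdc25b (0.80) and Mki67 (0.73) are red at E13.5.

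Among the genes of mitotic entry, Cdc25c fell most. CDC25C removes the inhibitory phosphates from CDK1. Its log2 signal was 8.80, 8.82, 8.88, 8.83 and 8.86 on the E10.5 forelimb arrays and 7.500, 7.25, 7.28, 7.08 and 7.56 at E13.5, and 8.96, 9.08, 9.001 and 9.09 and 7.93, 7.60, 7.51, 7.72 and 7.64 in hindlimb. The stages were apart by more than 1 log2 unit in both limbs without overlap. The change was -1.51 ± 0.08 (SE) in forelimb, a 2.84-fold fall (adjusted p = 8.5e-20), and -1.35 ± 0.09 in hindlimb. Ccnb2, encoding cyclin B2, changed by -1.01 and -0.74. Cdk1, the kinase itself, changed by -0.68 and -0.78, and Ccna2, encoding cyclin A2, by -0.63 and -0.66, and all passed the adjusted p in both limbs. Cdc25b, a phosphatase of the same family, did not pass in either limb (-0.38 ± 0.12 and 0.10 ± 0.13), but the forelimb change passed when the 38 later limb arrays were fitted alone (adjusted p = 5.15e-05).

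Plk1, the Polo kinase that drives centrosome maturation and cytokinesis, had the largest fall of the 42 genes in both limbs. The E10.5 forelimb arrays read 10.77, 10.70, 10.83, 10.83 and 10.73 and the E13.5 arrays 9.33, 9.09, 9.16, 9.02 and 9.46. In hindlimb the values were 10.92, 11.11, 10.96 and 11.09 at E10.5 and 9.45, 9.39, 9.32, 9.34 and 9.47 at E13.5, so that the lowest E10.5 array of either limb stood above every E13.5 array by more than 1 log2 unit. The fall was 2.95-fold in forelimb (-1.56 ± 0.15 log2, adjusted p = 1.1e-12) and 3.08-fold in hindlimb (-1.62 ± 0.15). Nek2, a kinase that separates centrosomes, changed by -0.95 and -1.001. Aurka, encoding the Aurora kinase of the spindle poles, changed by -0.67 and -0.64 as a mean of 2 probe sets. The brighter of these fell by 1.39 in forelimb, while the dimmer stayed near log2 3.63 on all arrays.

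Of the 5 genes of the spindle checkpoint, which delays anaphase while chromosomes are unattached, Bub1, Bub1b, Mad2l1 and Ttk were lower in forelimb by adjusted p and the first 3 of them in hindlimb. Bub1, the kinase that recruits the checkpoint to kinetochores, read 9.12, 9.05, 9.18, 9.22 and 9.06 in E10.5 forelimb and 7.97, 7.80, 7.67, 7.61 and 7.78 at E13.5. Its hindlimb arrays read 9.17, 9.17, 8.91 and 9.26 and 8.16, 8.09, 8.28, 8.24 and 8.08. Neither limb showed overlap, and the changes were -1.36 ± 0.08 and -0.96 ± 0.09. Mad2l1, which encodes the inhibitor of CDC20, read 11.72, 11.76, 11.86, 11.90 and 11.85 in E10.5 forelimb and 10.84, 10.89, 10.76, 10.69 and 10.90 at E13.5. It changed by -1.002 ± 0.07 in forelimb and -1.13 ± 0.07 in hindlimb, and Bub1b by -0.80 and -0.78.

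Ttk, encoding the MPS1 kinase, and Bub3, a partner of BUB1, changed little as means of their probe sets (-0.34 and -0.01 in forelimb), and in both the probe sets went apart. The bright Ttk probe set fell by 1.24 in forelimb and 1.19 in hindlimb, while the dim one was 0.56 higher in forelimb. Bub3 had 5 probe sets, of which the brightest changed by -0.23, another at log2 9.20 by -1.27, and the 3 under log2 5 by 0.32 to 0.71. Read from its brightest probe set, Bub3 was lower in forelimb (adjusted p = 0.000195) and hindlimb (-0.25, adjusted p = 0.000155). Which probe set follows the Bub3 transcript cannot be read from these files. The call of Ttk in forelimb was lost with its own groups alone (adjusted p = 0.00271), under quantile normalization (0.073) and without replicate 2 or 3 of E10.5 or replicate 2 of E13.5 (0.00124 to 0.00219), and on the bright probe set Ttk passed in hindlimb too (1.17e-18).

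The 3 genes around the anaphase promoting complex, which marks cyclin B and securin for destruction, were lower in both limbs. Ube2c, its ubiquitin-conjugating enzyme, read 12.47, 12.49, 12.52, 12.47 and 12.61 in E10.5 forelimb and fell to 11.37, 11.27, 11.25, 11.34 and 11.62 at E13.5. In hindlimb it read 12.54, 12.58, 12.58 and 12.54 and 11.65, 11.53, 11.39, 11.58 and 11.60. The arrays of E10.5 and E11.5 overlapped in both limbs, and those of E13.5 stood below all of E10.5 to E12.5. The step from E12.5 to E13.5 was -0.98 ± 0.09 in forelimb and -0.78 ± 0.09 in hindlimb. Espl1, the separase that cuts cohesin, changed by -1.16 and -0.76 over the whole interval, and Cdc20, the activator of the complex, by -0.88 and -0.995. Of 13 further subunits and activators of the complex, 6 were lower in forelimb by adjusted p and none was called, with Fzr1, the activator in G1, at -0.95.

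All 4 genes of the chromosomal passenger complex, which corrects attachments and directs cytokinesis, were lower in both limbs. Cdca8, encoding borealin, read 11.13, 11.19, 11.21, 11.22 and 11.17 in E10.5 forelimb and 9.99, 9.85, 9.87, 9.78 and 10.002 at E13.5, and its 3 probe sets fell by 1.19 to 1.48. In hindlimb it read 11.33, 11.38, 11.42 and 11.36 and 10.23, 10.10, 10.09, 10.11 and 10.10. The arrays of a group lay far closer together than the stages, which differed by -1.29 and -1.25. Aurkb, the kinase of the complex, changed by -0.91 and -1.06, Birc5, encoding survivin, by -0.85 and -0.82, and Incenp, the scaffold, by -0.68 and -0.73.

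The kinetochore links the centromere to microtubules. Of its 7 genes, Ndc80 (-1.09 in forelimb and -1.13 in hindlimb) and its partner Nuf2 (-0.83 and -0.83) were lower in both limbs, as were Cenpf (-1.04 and -0.86) and Cenpa, the centromeric histone (-0.49 and -0.33). On the E10.5 forelimb arrays Ndc80 read 8.90, 8.90, 9.05, 8.94 and 9.06, and at E13.5 7.95, 7.90, 7.76, 7.81 and 8.01. Spc25, of the same complex as Ndc80, passed in forelimb (-0.40) and not in hindlimb (-0.18). Cenpe, a kinetochore motor, also passed in forelimb alone (-0.77 and -0.43) with the widest standard error of the set (0.18). Its E11.5 forelimb arrays read 9.81, 8.84, 8.83 and 9.65, and 1 hindlimb array at E12.5 and 1 at E13.5 stood far below the others, at 8.65 and 8.32. The forelimb call of Cenpe was lost under quantile normalization (adjusted p = 0.0103) and without replicate 5 of E10.5 or replicate 2 or 5 of E13.5 (0.00111 to 0.00148), and on its brightest probe set hindlimb passed as well (6.58e-05). Cenpk missed the threshold in both limbs (-0.34 and -0.16), but passed in forelimb with its own groups alone (adjusted p = 0.000122) or the later limb arrays alone (3.12e-07). Of its 3 probe sets the bright one fell by 1.03 while the other two stayed under log2 5 in every limb group.

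Kinesins move chromosomes and slide spindle microtubules. Kif20a, which acts in cytokinesis, was down-regulated, with a change of -1.32 ± 0.08 in forelimb and -1.18 ± 0.08 in hindlimb, from 10.52, 10.54, 10.58, 10.59 and 10.59 to 9.41, 9.12, 9.10, 9.03 and 9.58 on the forelimb arrays. Kif2c, a microtubule depolymerase, changed by -1.23 ± 0.07 and -1.16 ± 0.07, with forelimb arrays at 8.55, 8.84, 8.67, 8.66 and 8.73 at E10.5 and 7.52, 7.42, 7.39, 7.46 and 7.52 at E13.5. Kif11, the motor that separates spindle poles, changed by -1.22 ± 0.07 and -1.16 ± 0.08, from 9.74, 10.05, 9.97, 9.89 and 9.92 to 8.72, 8.60, 8.67, 8.62 and 8.85 in forelimb. All 3 kinesins had no overlap between the stages. Kif22 (-0.87 and -0.87), Kif4 (-0.66 and -0.39) and Kif23 (-0.42 and -0.50) were lower without reaching a fold change of 2. The probe sets of Kif22 went apart, with forelimb changes of -1.54, -1.28 and, on the brightest, 0.20 (0.06 in hindlimb). Kif15 had the only value above 0 in forelimb (0.28 ± 0.13), which did not pass the test, and its single probe set read 4.10, 4.44, 4.22, 4.15 and 4.70 at E10.5 and 4.53, 4.75, 4.53, 4.73 and 4.48 at E13.5, below the median of all probe sets (5.31).

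The 6 genes of the spindle and cytokinesis changed less, by -0.41 to -0.64 in forelimb. Prc1, which bundles midzone microtubules, changed by -0.64 and -0.59, Hmmr by -0.62 and -0.69, and Tpx2, the activator of Aurora A, by -0.41 and -0.54. Anln, encoding anillin of the contractile ring (-0.49), and Nusap1 (-0.62) passed in forelimb alone, with hindlimb values of -0.32 and -0.17. Ect2, the RhoA exchange factor of cytokinesis, did not pass in either (-0.43 and -0.22), though forelimb passed without E13.5 replicate 4 (adjusted p = 0.00045). The forelimb call of Tpx2 was lost under quantile normalization (-0.27, adjusted p = 0.0147). Its bright probe sets changed by -1.16 and -1.43 in forelimb, while its dim ones changed by 0.56 and 0.40. Both chromosome genes of the set did not pass in either limb. Mki67, whose Ki-67 protein coats mitotic chromosomes and is present through the cycle, read 12.08, 11.92, 12.01, 12.0003 and 12.07 in E10.5 forelimb and 11.95, 11.87, 11.83, 11.86 and 12.02 at E13.5. These arrays overlapped, and the change was -0.11 ± 0.06 in forelimb and 0.23 ± 0.07 in hindlimb. In hindlimb Mki67 passed as higher on the 38 later limb arrays alone (adjusted p = 0.00072), under quantile normalization (0.35, 0.000178) and without E10.5 replicate 1 (0.30, 0.000267). Top2a, the topoisomerase that untangles chromosomes, changed by -0.16 and 0.03, and its bright probe set by -0.48 and -0.09, of which the forelimb value passed (adjusted p = 1.41e-08).

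**Figure D3:**
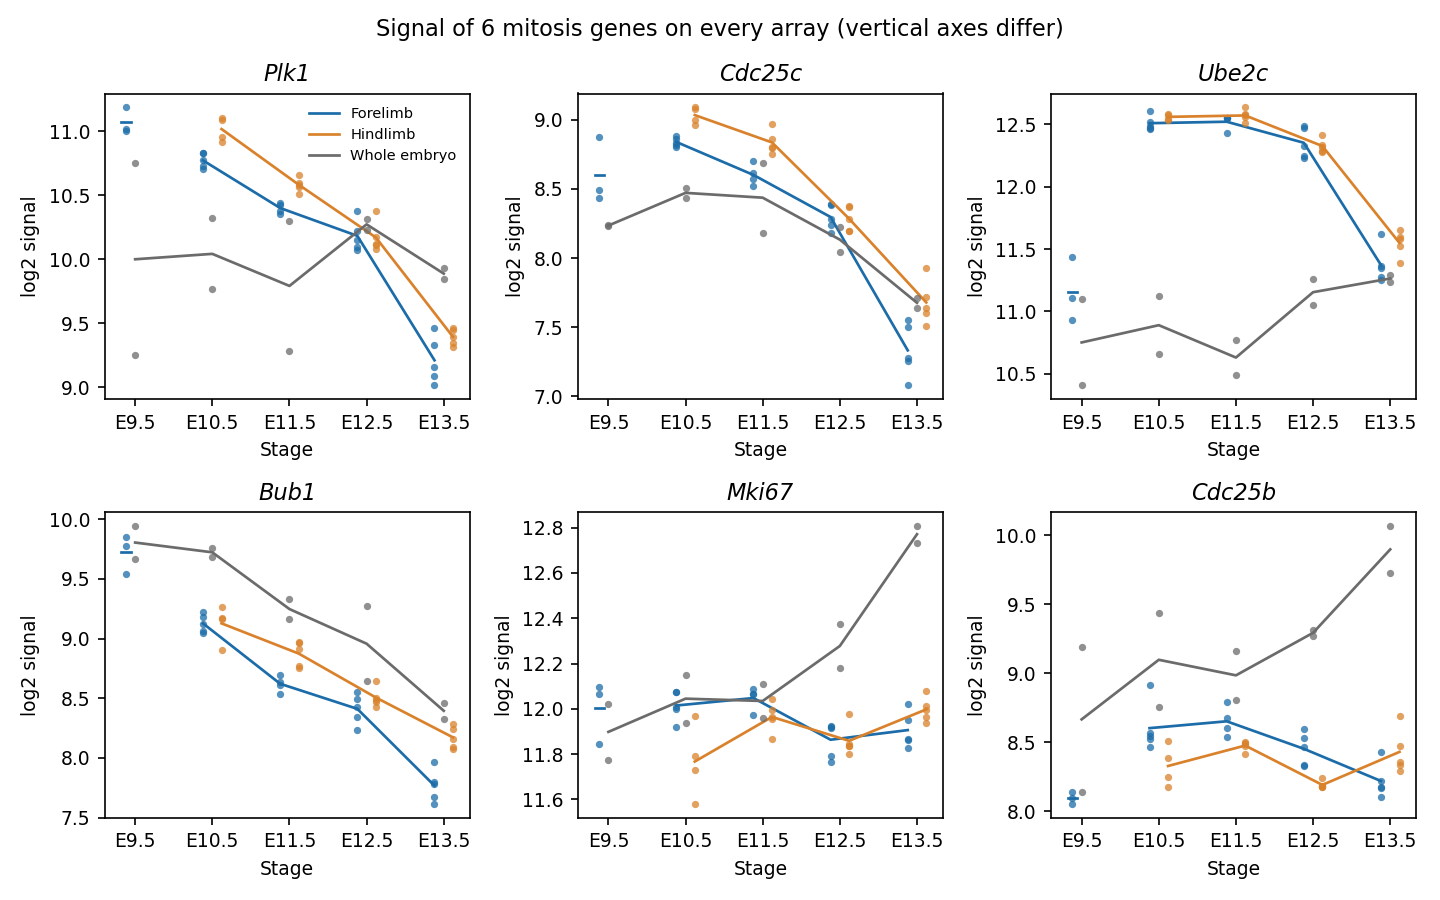
Log2 signal of Plk1, Cdc25c, Ube2c, Bub1, Mki67 and Cdc25b on every array (points) by stage, with lines through the group means of forelimb, hindlimb and whole embryo; the vertical axes differ between panels. From E10.5 on, Plk1 and Cdc25c are lower at each later limb stage, Ube2c in limb is above 12 from E10.5 to E12.5 and below it at E9.5 and E13.5, and Mki67 and Cdc25b rise in whole embryo from E10.5 to E13.5 (by 0.73 and 0.80) but show no such rise in forelimb.

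A gene value here is the mean of the log2 signals of its probe sets, and 27 of the 42 genes had 2 or more among 94 in all. The 61 probe sets with a mean log2 signal of 8 or more, a limit chosen after the values were seen, covered 41 genes, and 60 of them were lower at E13.5 than at E10.5 in forelimb, with a median of -1.01. The 33 dimmer ones had a median of -0.11, and 22 were lower. With each gene read from its brightest probe set alone, 19 were called down-regulated in forelimb and 12 in hindlimb, and the medians were -0.88 and -0.79. The forelimb falls of Ttk, Cenpk, Tpx2 and Aurka are therefore smaller here than those of their bright probe sets, while for Bub1 (-1.05 on the bright one), Cenpf (-0.91), Nusap1 (-0.36) and Anln (-0.22) they are larger.

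**Figure D4:**
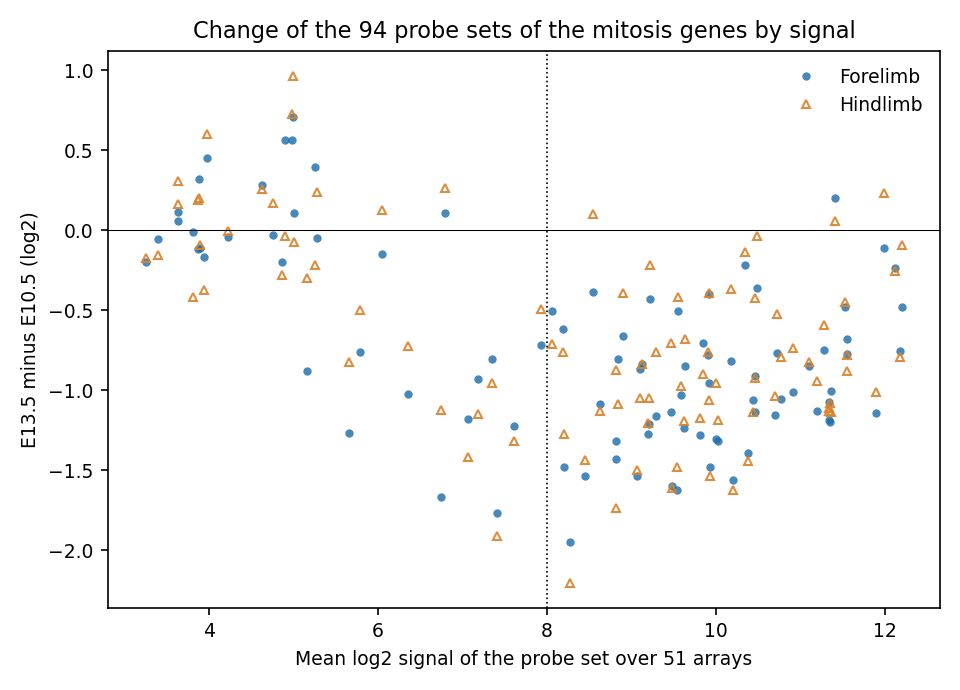
Change from E10.5 to E13.5 (log2) of each of the 94 probe sets against its mean log2 signal over the 51 arrays, for forelimb (dots) and hindlimb (triangles), with a dotted line at 8. To the right of the line nearly all lie below 0 in forelimb (60 of 61), and to the left, where signals are dimmer, values are mixed in sign with a forelimb median of -0.11.

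More members passed the test in the last step than in either earlier step, in both limbs. From E10.5 to E11.5, 3 members were lower in forelimb by adjusted p (Bub1, Mad2l1 and Nek2, background 3.2%) and 7 in hindlimb (Mad2l1, Aurkb, Hmmr, Nek2, Cdca8, Nuf2 and Kif22, 5.56%). From E11.5 to E12.5 it was 2 in forelimb (Nuf2 and Kif4, 0.758%) and 12 in hindlimb (2.73%), and from E12.5 to E13.5 26 in forelimb (20.2%) and 19 in hindlimb (12.7%). The median changes per step were -0.21, -0.19 and -0.38 in forelimb and -0.19, -0.26 and -0.28 in hindlimb, and no member fell by 2-fold or more in any step. Bub3 was higher at E13.5 than at E12.5 in both limbs (0.34 and 0.39), on the dim probe sets named above. Nusap1 was higher at E11.5 than at E10.5 in hindlimb (0.33). In the last step Ube2c (-0.98), Plk1 (-0.97), Cdc25c (-0.96) and Kif11 (-0.93) changed most in forelimb, and Ube2c (-0.78), Plk1 (-0.78), Kif11 (-0.72) and Kif2c (-0.68) in hindlimb. From E11.5 to E12.5 Cdc25c (-0.55) and Kif20a (-0.39) led the hindlimb. Without the 2 arrays of unclear label, the forelimb count from E11.5 to E12.5 was 0 and the hindlimb count from E10.5 to E11.5 was 4. Fitted on the 38 later limb arrays alone, the first step gave 8 in forelimb and 11 in hindlimb and the second 7 in forelimb. With forelimb E11.5 replicate 1 left out, the forelimb counts of the first 2 steps were 5 and 0, and without E12.5 replicate 5 the second was 1. In hindlimb the first step gave 3 without replicate 1 or 2 of E10.5 or replicate 2 or 3 of E11.5 and 4 without replicate 3 or 4 of E10.5, and the second gave 7 without E11.5 replicate 4 or E12.5 replicate 3 or 5.

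Marker genes of other cells moved over the same interval. The mean log2 level of the 7 erythroid genes measured ranged from 9.54 to 10.14 over the E10.5 forelimb arrays and from 6.52 to 6.64 over those of E13.5. In hindlimb the ranges were 9.77 to 9.91 at E10.5 and 6.29 to 6.70 at E13.5, and all 7 genes were called down-regulated in both limbs. In whole embryo, where 18 of the mitosis genes were lower, the erythroid level was 9.52 to 9.98 at E10.5 and 10.97 to 10.99 at E13.5. That mean hides genes of opposite direction. Of the 7, 5 were called up-regulated and 2 down-regulated there, and Hbb-bh1 went from 13.74 to 9.95. Of 8 cartilage genes 7 were called up-regulated in each limb, and the level of the list in forelimb was 6.87 to 7.18 at E10.5 and 10.07 to 10.37 at E13.5. Of 9 skeletal muscle genes 8 were called up-regulated in each limb, with forelimb levels of 4.44 to 5.90 and 10.30 to 10.48. Of 8 limb mesenchyme genes, 4 were called down-regulated in forelimb (median -1.04) and 1 in hindlimb (-0.39), and in forelimb 5 were called in the last step alone (median -1.13). The level of that list went from 8.83 to 7.77 in forelimb and from 9.29 to 8.85 in hindlimb. Of 6 epidermis genes 4 were called up-regulated in each limb, and of 5 macrophage genes all were higher by adjusted p in both. The part of these cells in the fall of the mitosis genes was not tested.

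Other genes of the cell cycle were counted beside the set. Of 48 further mitotic genes, 16 were called down-regulated in forelimb and 14 in hindlimb (backgrounds 5.13% and 5.16%, as above), with medians of -0.82 and -0.71, and Spag5 (-1.69), Cenph (-1.63), Dlgap5 (-1.63) and Ccnf (-1.51) changed most in forelimb. Of 45 measured DNA replication genes, 10 and 13 were called against the same backgrounds, with medians of -0.73 and -0.85, among them Cdc6 (-1.53), Mcm10 (-1.35), Fen1 (-1.35) and Rrm2 (-1.30). Of 16 CDK inhibitors and genes of cell cycle exit, 4 were called up-regulated in forelimb and 5 in hindlimb (backgrounds 5.43% and 5.99%), and none was called down-regulated, though 2 were lower by adjusted p in each limb. Cdkn1c, encoding the inhibitor p57, rose by 1.41 and 2.14, Cdkn1a, encoding p21, by 1.36 and 1.04, and the retinoblastoma relative Rbl2 by 1.45 and 1.71. Of 10 G1 cyclins and growth factors of the cycle, Mycn (-1.28) and E2f3 (-1.13) were called down-regulated in forelimb.

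Forelimb and hindlimb were compared at each stage, since the hindlimb bud forms slightly later than the forelimb bud. No member was called different at any stage. By adjusted p alone none differed at E10.5 (background 3.76%) or E11.5 (1.41%) in limma, and 1 differed at E12.5 (2.13%) and another at E13.5 (1.57%). At an unadjusted p under 0.05 there were 20, 13, 7 and 17 members, against 27.5%, 14.4%, 24% and 17.4% of all genes. Most members were lower in forelimb: 29, 37, 25 and 42 of the 42 in order of stage, where 57.2%, 50.2%, 47.1% and 50.3% of all genes were. The median difference was -0.11, -0.11, -0.03 and -0.15 log2. The E12.5 value turned to 0.01 when only probe sets without an a, s or x tag in their names were used, which left 34 members. The 42 values of a stage come from the same arrays and are not independent of each other.

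Every forelimb array lay below every hindlimb array for 15 members in E10.5 embryos (8.78% of all genes), 9 a day later (4.21%), 3 in E12.5 embryos (5.25%) and 10 in the oldest (4.9%). The mean over the 42 genes was 9.12 to 9.17 in E10.5 forelimb and 9.20 to 9.21 in hindlimb, and 8.33 to 8.47 and 8.50 to 8.62 at E13.5, without overlap at either stage. At E12.5 the forelimb arrays (8.71 to 8.82) and hindlimb arrays (8.77 to 8.91) overlapped.

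The member that differed at E12.5 was Ect2, which read 8.54, 8.59, 8.53, 8.83 and 8.56 in forelimb and 9.23, 9.07, 9.15, 9.33 and 9.41 in hindlimb. The groups did not overlap, and the difference was -0.63 ± 0.12 (adjusted p = 2.5e-04). At E13.5 it was Kif4, the chromokinesin that shapes the midzone, which read 8.58, 8.43, 8.44, 8.38 and 8.55 in forelimb and 8.66, 8.64, 8.87, 8.69 and 8.84 in hindlimb (-0.26 ± 0.05, adjusted p = 4.7e-04). Leaving out 1 of replicates 3 and 5 of forelimb or 4 and 5 of hindlimb ended the call of Ect2 (adjusted p 0.00108 to 0.00169), and that of Kif4 ended without forelimb replicate 2, 3 or 4 or hindlimb replicate 3 or 5 (0.00214 to 0.0045), under quantile normalization (0.00904) and with its own groups alone (0.0265). With the replicate number as a block, neither passed (0.0012 for Ect2 and 0.00131 for Kif4). Other differences did not pass, the widest being those of Aurkb at E10.5 (-0.32 ± 0.09), Cenpe at E11.5 (-0.56 ± 0.20) and Bub1 at E13.5 (-0.40 ± 0.08).

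E9.5 forelimb belonged to the same set of arrays as whole embryo, but the dap and Gapdh readings of the E9.5 groups did not overlap. The dap control read 12.70 to 13.04 in forelimb and 11.68 to 11.94 in whole embryo, and the Gapdh excess was 1.48 to 1.73 and 2.03 to 2.85. The part of the arrays cannot be told apart from tissue here either. In E9.5 forelimb 10 members were higher than in E9.5 whole embryo by adjusted p (background 10.2%) and 2 lower (Cenpk -0.82 and Nusap1 -0.48, background 3.22%). The higher ones were Plk1, Espl1, Kif20a, Aurkb, Bub1b, Mad2l1, Ccna2, Cdk1, Nuf2 and Kif4, by 0.31 to 1.07. Plk1 was the only one called (background 2.08%). Its forelimb arrays read 11.004, 11.02 and 11.19, but the 2 whole-embryo arrays read 10.75 and 9.25, so that the call rests on 1 of them, and without it the difference was 0.32 (adjusted p = 0.302). With the E9.5 groups fitted alone none of the 10 passed, under quantile normalization 1 did, and the median over the members went from 0.10 to -0.16. The count was 1 without whole-embryo replicate 2, 6 without forelimb replicate 1 and 4 without forelimb replicate 3.

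Across the 2 sets of arrays, E10.5 forelimb against E9.5 forelimb gave 8 called members, with Aurkb lower (-1.17) and Cenpe (1.85), Kif11 (1.53), Nusap1 (1.44), Ube2c (1.35), Kif2c (1.16), Cenpf (1.07) and Birc5 (1.04) higher (background 7.54%). The median was 0.02, and -0.12 under quantile normalization. The 2 probe sets of Cenpe differed by 0.56 and 3.13 in this comparison. Against whole embryo of the same age, 7, 8 and 5 members were called in either direction in forelimb of E10.5, E11.5 and E13.5 (backgrounds 13.9%, 15.3% and 13.7%) and 7, 10 and 7 in hindlimb (13.2%, 15.7% and 14.4%). At E12.5, 7 were higher (8.52%) and 1 lower (5.44%) in forelimb, and 5 higher (7.11%) and 1 lower (5.43%) in hindlimb. Medians were 0.23, 0.17, 0.12 and -0.09 in forelimb, and the first 3 turned negative under quantile normalization. The probe sets of a gene disagreed in these comparisons by a median range of 0.76 to 1.25 log2 units and by up to 5.45 (Incenp), against 0.16 to 0.27 between forelimb and hindlimb. No single member's level in limb relative to whole embryo of these ages is therefore given. Disagreement was also wide for the limb changes from E10.5 to E13.5. The median range there was 0.74 in forelimb (10 of 27 genes over 1, up to 1.99) and 0.86 in hindlimb (12 of 27, up to 2.20). The sizes of change given gene by gene above carry that limit.

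In whole embryos, where limb is a small part of the tissue, 6 members were called down-regulated between E10.5 and E13.5 (Bub1, Ndc80, Cenpe, Cenpk, Ttk and Top2a, background 1.3%) and 18 were lower by adjusted p (background 6.79%), with a median of -0.43. Between E9.5 and E13.5, 7 were called (background 2.42%). Bub1 read 9.76 and 9.69 at E10.5 and 8.33 and 8.46 at E13.5 (-1.33 ± 0.13). Cdc25b (0.80 ± 0.19) and Mki67 (0.73 ± 0.10) rose. The whole-embryo arrays of Mki67 read 11.94 and 12.15 at E10.5 and 12.73 and 12.81 at E13.5, and those of Cdc25b read 8.76 and 9.44 at E10.5 and 10.07 and 9.73 at E13.5. Under quantile normalization, 11 members were called down-regulated, 34 were lower, and the rises of Cdc25b and Mki67 did not pass. With the E10.5 and E13.5 whole embryos fitted alone, 5 were lower (Bub1, Cenpe, Cenpk, Ttk and Top2a).

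In all, 14 members were lower by adjusted p in forelimb, hindlimb and whole embryo: Bub1, Ndc80, Cdc25c, Kif2c, Tpx2, Kif20a, Cenpa, Kif11, Hmmr, Mad2l1, Nek2, Kif22, Cdca8 and Incenp. Others that were lower in both limbs had whole-embryo values that did not pass, among them Ccnb2 (-0.02), Ccna2 (0.14), Plk1 (-0.15), Birc5 (-0.19), Cdk1 (-0.21) and Ube2c (0.37). Cenpk, Ttk and Top2a were called in whole embryo and not in limb, and here too the probe sets went apart. The fall of Top2a in whole embryo came with 1 probe set of 3, which changed by -2.75, while the bright one changed by -0.18. The bright probe sets of Cenpk and Ttk changed by -1.02 and -0.995 in whole embryo, beside -1.03 and -1.24 in forelimb. Of the 14 above, Tpx2, Incenp and Kif22 also had probe sets that went apart. In whole embryo the brightest of Tpx2 changed by -0.14 and a dim one by -1.30, and those of Incenp by -1.99 to 0.37. The brightest of Kif22 changed by 0.20 in forelimb, 0.06 in hindlimb and 0.21 in whole embryo. The shared fall of these genes depends on the probe set read.

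The change from E10.5 to E13.5 was set against that of the whole embryo by a test of the difference. In forelimb 17 members had a more negative change than in whole embryo (background 19.5%) and 3 a less negative one (4.97%), and in hindlimb 13 (18.5%) and 3 (5.06%). The largest differences were those of Ube2c (-1.51 ± 0.17 in forelimb and -1.39 ± 0.17 in hindlimb) and Plk1 (-1.41 ± 0.27 and -1.47 ± 0.28). In forelimb Cdc25b (-1.18), Ccnb2 (-0.99), Cdca8 (-0.85) and Mki67 (-0.83) followed, and in hindlimb Cdca8 (-0.81), Ccna2 (-0.80), Ccnb2 (-0.72) and Birc5 (-0.64). Without replicate 1 of E10.5 whole embryo, Plk1 did not pass in forelimb (-1.13, adjusted p = 0.00372) or hindlimb (-1.19, 0.00259), nor did Cdc25b (-0.84, 0.00491) and Cenpk (0.79, 0.00425) in forelimb. Without replicate 1 of E13.5 whole embryo, Cdc25b in forelimb (-1.01, 0.00143) and Birc5 in hindlimb (-0.60, 0.00108) did not pass. Quantile normalization ended the calls of Cdc25b, Cdca8 and Mki67 in forelimb (adjusted p 0.00187 to 0.189) and of Cdca8, Ccna2, Ccnb2 and Birc5 in hindlimb (0.0166 to 0.262). Cenpk, Top2a and Ttk had a less negative change in limb (by 1.07, 0.97 and 0.79 in forelimb), but on their brightest probe sets the forelimb differences were -0.0037, -0.29 and -0.24. In hindlimb, the brightest probe sets of Cenpk (0.05, adjusted p = 0.829), Top2a (0.09, 0.589) and Cdca8 (-0.50, 0.00761) did not pass. The counts of 17 and 13 were 6 and 7 without replicate 1 of E10.5 whole embryo, in forelimb 9 and 10 without replicate 1 or 2 of E13.5 whole embryo, in hindlimb 7 without replicate 2. Quantile normalization moved the median difference of all genes in forelimb from -0.14 to 0.04 and that of the members from -0.45 to 0.03, and left 3 members with a more negative change in forelimb and 2 in hindlimb, Ube2c and Plk1 among them in both.

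**Figure D5:**
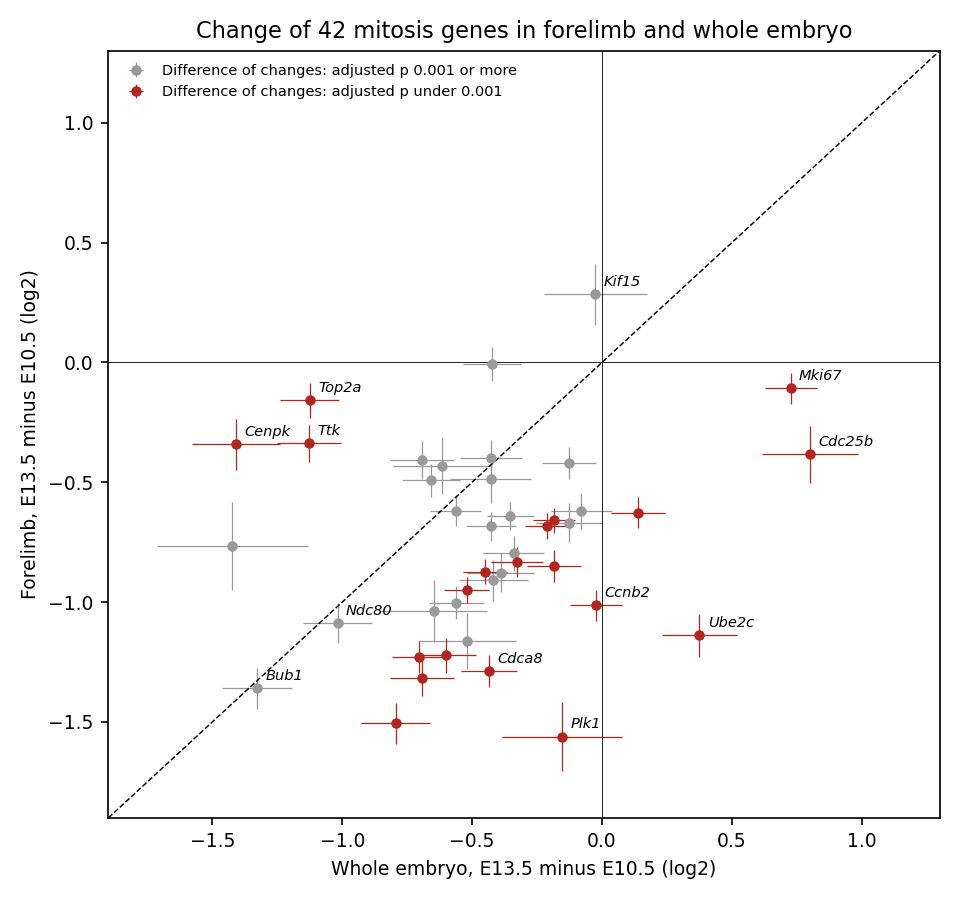
Change from E10.5 to E13.5 (log2) in forelimb (vertical) against whole embryo (horizontal) for the 42 genes, with standard errors as bars and a dashed line where both are equal; red marks members whose difference of changes passed the adjusted p. Ube2c and Plk1 lie farthest below the line (differences of -1.51 and -1.41) and Cenpk, Top2a and Ttk farthest above it.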

How the data were processed

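The deposited series matrix holds, per the labels and the study's methods, RMA signals of 51 whole-genome Affymetrix mouse arrays, prepared by the authors from labelled RNA amplified in 2 cycles. RMA covers background correction, normalization and probe summary, and the authors repaired a blemish on 1 whole-embryo array. The deposited values are linear intensity values, and log2 was taken here. Of 45101 probe sets, 34958 carried 1 symbol, 932 several (not used) and 9211 none. The log2 signals of the probe sets of a gene were averaged, giving 18194 genes. Groups were taken from sample titles, also for the 2 arrays of unclear label. A model with 14 groups (37 residual degrees of freedom) was fitted with limma 3.58.1 in R 4.3.3, with Benjamini-Hochberg adjustment over all genes of each comparison. Calls needed a fold change of 2 and an adjusted p under 0.001. The p-values measure the spread between embryos of a litter, and the number of arrays limits precision. Forelimb and hindlimb arrays of a stage may come from the same embryos, and the main fit treated them as independent. The members, gene lists and tests were chosen with earlier results of these data known. The rule for naming took, in each role, the members of largest and smallest fall in forelimb, the members that differed between tissues or in their change (up to 6 each way), and up to 4 called genes of each other list; Ccnb1 and other members outside it were named to account for the whole set. The script was tested on simulated data. Alternatives were quantile normalization, the probe set of highest mean and own groups only. Another kept only probe sets without an a, s or x tag in their names (34 members). Others were the later limb arrays only, a trended and robust prior, a filter on low genes, a replicate block, and leaving out each array. Promoter sequences are RefSeq's (GRCm38.p6).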

Additional observations from a re-analysis of the deposited data

Results flagged for a closer look

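Single arrays stood apart from the others of their group in 18 of 208 groups tested by Dixon's gap ratio, a rule that chance meets in about 1 in 20. The mean of the 42 mitosis genes was high in E12.5 hindlimb replicate 1 (8.91). Cdc25b was high in E10.5 forelimb replicate 1 (8.92) and in E12.5 hindlimb replicate 2 (8.24), and Cdca8 in E13.5 hindlimb replicate 1 (10.23). Incenp stood apart in E11.5 hindlimb replicate 1 (7.81) and Kif15 in E11.5 hindlimb replicate 2 (4.23). Cenpk did so in E13.5 forelimb replicate 1 (5.502) and E13.5 hindlimb replicate 5 (5.37), and Mki67 in E12.5 hindlimb replicate 2 (11.98). Ect2 was high in E12.5 forelimb replicate 4 (8.83). Cenpe was far from the others in E12.5 forelimb replicate 2 (9.05), E12.5 hindlimb replicate 2 (8.65) and E13.5 hindlimb replicate 4 (8.32). Ube2c stood apart in E11.5 forelimb replicate 3 (12.43), Ccnb2 in E12.5 hindlimb replicate 1 (11.18) and Birc5 in E10.5 forelimb replicate 1 (11.57). Ttk did so in E12.5 hindlimb replicate 1 (7.40) and E13.5 hindlimb replicate 5 (7.22).

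The change from E10.5 to E13.5 differed between limb and whole embryo, by limma's test of the difference, for the members named here, and these comparisons cross the 2 sets of arrays. Some of these calls were lost without 1 whole-embryo array or under quantile normalization, as given in the results. In forelimb it was more negative for Ube2c (difference -1.51 log2), Plk1 (-1.41), Cdc25b (-1.18), Ccnb2 (-0.99), Cdca8 (-0.85) and Mki67 (-0.83), and less negative for Cenpk (1.07), Top2a (0.97) and Ttk (0.79). In hindlimb it was more negative for Plk1 (-1.47), Ube2c (-1.39), Cdca8 (-0.81), Ccna2 (-0.80), Ccnb2 (-0.72) and Birc5 (-0.64), and less negative for Cenpk (1.25), Top2a (1.15) and Ttk (0.89).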

How the results depend on the processing

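The fall of the mitosis genes between E10.5 and E13.5 kept its direction in both limbs under every alternative run, and with 1 array left out 10 to 13 members were called in forelimb and 9 to 12 in hindlimb. Quantile normalization gave median changes of -0.57 in forelimb, -0.60 in hindlimb and -0.75 in whole embryo (-0.78 from E9.5), with 8, 6 and 11 called and 34 lower by adjusted p in whole embryo. From E12.5 to E13.5 it gave -0.24 and -0.23, for the hindlimb step before it -0.21 with 7 lower, for E10.5 against E9.5 forelimb -0.12 and for forelimb against hindlimb at E12.5 -0.11. It reversed the median difference of changes from whole embryo (0.0306 in forelimb with 3 members lower, 0.0720 in hindlimb with 2), that of forelimb from whole embryo at E9.5 to E12.5 (-0.16 with 1 higher, -0.27, -0.28 and -0.10) and that of hindlimb at E10.5 to E12.5 (-0.23, -0.11 and -0.00849). The cause was not tested. The probe set of highest mean gave medians of -0.88 in forelimb, -0.79 in hindlimb, -0.32 in whole embryo with 3 called (-0.42 from E9.5), -0.45 for the last forelimb step, 6 lower in the first, -0.20 for forelimb against hindlimb at E13.5, 0.36 and -0.17 for forelimb against whole embryo at E11.5 and E13.5, 0.32, 0.49 and 0.0358 for hindlimb at E10.5, E11.5 and E13.5, and -0.34 for the hindlimb difference of changes. It reversed Bub3 in hindlimb (-0.25) and the differences of changes of Cenpk (-0.0037), Top2a (-0.29) and Ttk (-0.24) in forelimb and Ttk (-0.20) in hindlimb. Probe sets without an a, s or x tag in their names covered 34 members. They gave medians of -0.67, -0.66 and -0.50 in forelimb, hindlimb and whole embryo and -0.0453 for E10.5 against E9.5 forelimb. For forelimb against hindlimb at E10.5 and E12.5 medians were -0.0517 and 0.0124, with 14 of the 34 below 0 at E12.5. For forelimb against whole embryo at E12.5 and E13.5 they were 0.20 and -0.0195. The differences of changes gave -0.32 with 9 lower and -0.21. Counts among the 34 were 6 higher at E9.5, 1 lower in the second forelimb step and 4 and 6 in the first 2 hindlimb steps. Fitted on their own groups, 5 were lower in whole embryo, 9 and 6 in the differences of changes, 0 higher at E9.5 and 0 lower in the second forelimb step. The 38 later limb arrays alone gave 8 and 7 in the first 2 forelimb steps and 11 in the first hindlimb step. Without the 2 arrays of unclear label the second forelimb step gave 0 and the first hindlimb step 4.

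With 1 array left out, medians ran from -0.47 to -0.37 and from -0.42 to -0.34 for the forelimb and hindlimb differences of changes, 0.0875 to 0.27 and -0.15 to -0.0585 for forelimb against whole embryo at E11.5 and E13.5, 0.20 to 0.34 and 0.19 to 0.37 for hindlimb at E10.5 and E11.5, and -0.50 to -0.37 in whole embryo (-0.65 to -0.42 from E9.5). Counts ran from 6 to 18 and 7 to 13 for the differences of changes, 1 to 11 at E9.5, 2 to 5 and 0 to 2 in the first 2 forelimb steps, and 3 to 6 and 7 to 13 in the first 2 hindlimb steps. The labels do not say that a number marks an embryo. Same-numbered forelimb and hindlimb arrays had correlations of their deviations from the group means of -0.034 to 0.036 at E10.5, -0.110 to 0.128 at E11.5, 0.071 to 0.347 at E12.5 and 0.032 to 0.254 at E13.5, against -0.245 to 0.142 and -0.335 to 0.231 for other pairs at the last 2 stages. They were all positive at E12.5 and E13.5, but at no stage were all above 0.1 or did every array correlate best with its own number, so that pairing was not established. With the replicate block, Ect2 at E12.5 (-0.63, adjusted p = 0.0012) and Kif4 at E13.5 (-0.26, adjusted p = 0.00131) missed the threshold, and the median difference between the limbs' changes was -0.07. Of 1277 alternatives over 71 gene results, 1217 kept direction and side of the threshold, 42 lost and 13 gained the threshold and 5 reversed. The number of arrays, 2 per whole-embryo stage, limits those comparisons.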
